A study of Xenopus tropicalis with 3 samples.

Results

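Of 11771 genes compared in the prospective epidermis of Xenopus tropicalis, 136 genes had their highest value at the neurula stage (NF16), above both the gastrula stage (NF10.5) before it and the tailbud stage (NF24) after it by a fixed margin. They included 4 regulators or deuterosome genes of multiciliated cells, 11 centriole genes, 5 genes for Hes repressors, 9 for ligands or extracellular proteins and a mixed set of transcription factors, enzymes and others. The samples were manually dissected animal caps, labelled gastrula at NF10.5, neurula at NF16 and tailbud at NF24, with 3 replicates named in the labels for each stage and no word on whether these were separate clutches or cultures. No treatment or genotype separates the stages. The deposited table gives 1 value per stage, in FPKM (fragments per kilobase of transcript, scaled to library size), which is taken as the authors' mean, so no spread between replicates is known and no difference below has a test.

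The 136 genes were chosen from these same values. Transcript FPKM was added up for each gene name, genes that reached 1 FPKM at any stage were kept, and values were compared as log2(FPKM + 1). A gene belongs when NF16 exceeds NF10.5 by at least 1 on this scale and NF24 lies below NF16 by at least 1. All stage differences of these genes are therefore a description of how they were picked. The same rule read in other ways gave 150 genes lowest at NF16, 273 higher in both steps and 279 lower in both steps.

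The cap ectoderm of the frog embryo gives rise to a mucociliary epidermis, in which mucus-secreting cells are interspersed with multiciliated cells, ionocytes and small secretory cells. Multiciliated cells arise in the inner layer under Notch control, move outward between the surface cells and build many basal bodies at once. The coactivator Multicilin, with E2F factors, switches on the genes for this, and new centrioles grow on the parental centrioles and on deuterosomes, structures particular to these cells, before they dock at the surface as basal bodies. The epidermal markers krt5.7 and cdh1 were present at all stages. Of 41 keratin and junction genes in the table, 6 stayed below 1 FPKM throughout, among them krt5.6, listed at 0. The keratin krt5.7 had 690.5 FPKM at NF10.5, 17079 at NF16 and then 22588 at NF24, and E-cadherin, cdh1, had 31.7, 497 and 619.9 FPKM at these stages.

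Taken as a set, the 136 genes held 0.465% of the summed FPKM at NF10.5, then 2.48% (NF16) and 0.956% (NF24). At NF16 their values ran from 1.01 to 3021 FPKM with a median of 26.4, and 92 of them reached 10 FPKM. At NF10.5 the median was 2.25 FPKM and at NF24 it was 7.34 FPKM. At NF10.5, 51 of the 136 lay below 1 FPKM, and 20 of these were also below 1 FPKM at NF24, so that they entered the comparison through NF16 alone. The median log2 difference was 2.27 for the step into NF16 and -1.38 for the step out of it. Over all genes compared these medians were -0.57 and 0.12.

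**Figure D1:**
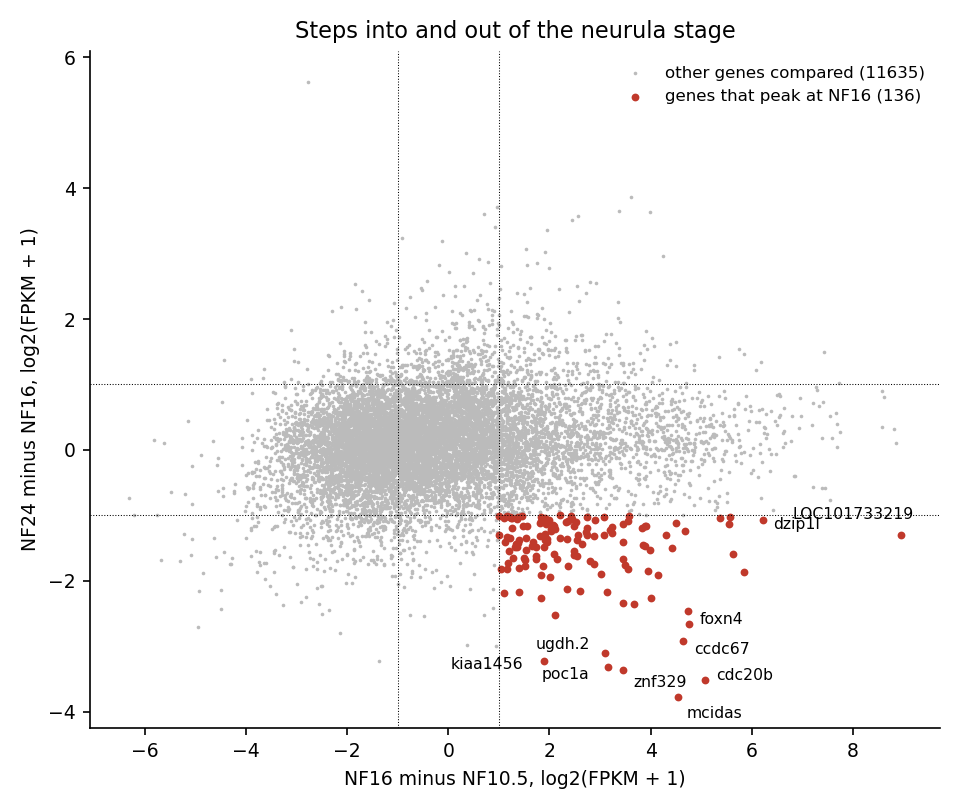
Each point is a gene, with its NF16 minus NF10.5 difference on the x axis and its NF24 minus NF16 difference on the y axis, both in log2(FPKM + 1); dotted lines mark differences of 1 and -1. The 136 peak genes fill the lower right corner, where mcidas and cdc20b lie lowest and LOC101733219 lies farthest to the right, at 8.96.

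A peak of this kind was uncommon. Of all genes compared, 2466 (20.9%) were higher at NF16 than at NF10.5 and 570 (4.84%) were lower at NF24 than at NF16, and the 136 genes that did both were 1.16% of the total. They made up 5.52% of the genes higher at NF16, near the 4.84% of all genes that were lower at NF24. Likewise they made up 23.9% of the genes lower at NF24, near the 20.9% of all genes that were higher at NF16. Close to the threshold lay fh, tnni3, rabl2b and kiaa1324l inside it and tp63, rnf149, adam7 and plod2 outside it. The smaller of the 2 steps was between 1.00 and 1.01 for the inner ones, and 0.99, 0.99, 0.99 and 0.98 for the outer ones. The epidermal stem cell factor tp63, for instance, had 7.51 FPKM at NF10.5, 212 at NF16 and then 106 at NF24, and missed the rule by its second step alone.

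The multiciliated cell regulators stood near the top of the set. The gene for Multicilin, mcidas, had 1.23 FPKM at NF10.5, 50.9 at NF16 and then 2.78 at NF24, which gives log2 differences of 4.54 and -3.78. Its gene neighbour cdc20b, which acts at deuterosomes, had 0.34, 44.5 and 2.96 FPKM. The deuterosome scaffold gene ccdc67, now named deup1, had 0.0867, 26.2 and 2.58 FPKM, and the forkhead factor gene foxn4, which works with Foxj1 in frog multiciliated cells, had 1.12, 56.4 and 8.05 FPKM. All 4 were low at gastrula, high at neurula and lower again at tailbud. They hold ranks 1, 2, 6 and 7 of the 136 by the smaller step. At tailbud mcidas was within 1 log2 of its gastrula value, with a difference of 0.76. On this scale cdc20b, ccdc67 and foxn4 lay above their gastrula values by 1 or more. Yet mcidas, cdc20b and ccdc67 had similar levels at NF24, between 2.58 and 2.96 FPKM. Their contrast rests on low gastrula values of 1.23, 0.34 and 0.0867 FPKM, where the 1 added to FPKM weighs heavily. In whole caps, fewer cells of a type and less RNA per cell cannot be told apart.

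Their partners in the same cascade had other time courses. Of 25 genes on a list of multiciliated cell regulators, 23 were compared, 8 were higher at NF16, 7 were lower at NF24 and 4 peaked. The share higher at NF16 was 34.8%, against 20.9% of all genes compared. The share lower at NF24 was 30.4%, against 4.84%, and the share that peaked was 17.4%, against 1.16%. The upstream regulator gmnc was high early, with 18.7 FPKM at NF10.5, 0.823 at NF16 and then 0.163 at NF24. The Multicilin partners e2f4 (83.3, 15.2 and 13.5 FPKM) and e2f5 (109.8, 18.97 and 23.9 FPKM) were likewise highest at gastrula. The ciliogenesis factor genes foxj1 (47.9, 98.9 and 58.9 FPKM) and tp73 (5.49, 38.7 and 26.8 FPKM) were highest at NF16 but were not called lower at NF24.

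The regulator ccno came close to the peak genes. This atypical cyclin, needed for basal body amplification, had 25.8 FPKM at NF10.5, 50.3 at NF16 and then 5.45 at NF24. Its second step was -2.99, beside a median of -1.38 for the peak genes, and its first step was 0.94. In the RefSeq annotation ccno, mcidas and cdc20b lie next to each other in this order. At NF16 the 3 neighbours had similar levels, between 44.5 and 50.9 FPKM, and at NF24 they had between 2.78 and 5.45 FPKM, whereas at NF10.5 only ccno was above 2 FPKM.

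Of the peak genes, 11 encode centriole proteins. Of 73 genes on the centriole and deuterosome list, 65 were compared and 11 peaked, which is 16.9% against 1.16% of all genes. Higher values at NF16 were called for 16 of the 65 (24.6% against 20.9%). Lower values at NF24 were called for 33 (50.8% against 4.84%), and 0 were higher at NF24, against 6.91% of all genes. The first count depended on scaling, with 39 under median-of-ratios scaling, 30 under quantile normalization and 23 under TPM rescaling. The shares of all genes higher at NF16 were then 30.4%, 23.4% and 23.4%. The centriole genes lower at NF24 then numbered 37, 35 and 30, where 6.59%, 6.68% and 5.04% of all genes were lower. The median differences of the list were 0.42 and -1.03, beside -0.57 and 0.12 over all genes. In all, 38 of the 65 (58.5%) had their highest value at NF16, which was the case for 13.7% of all genes compared and for 36 of 58 genes (62.1%) on the list for intraflagellar transport, the BBS complex and the transition zone.

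Among the early assembly factors, plk4, the kinase that starts centriole duplication, had 17.4 FPKM at NF10.5, 51.3 at NF16 and then 14.3 at NF24. Its recruiter cep152 had 6.6, 29.7 and 7.02 FPKM, and its substrate stil had 18.4, 39.2 and 10.4 FPKM. All 3 were back at or below about their gastrula value at tailbud. For the cartwheel and wall proteins, cep135 had 7.72, 43.8 and 12.1 FPKM and cenpj, a factor for centriole elongation, had 7.92, 20.3 and 8.33 FPKM. The centriole gene poc1a had 3.42, 38.5 and 2.97 FPKM, the largest second step of the 11 at -3.31. With a pseudocount of 5 added to FPKM in place of 1, stil and cenpj did not meet the rule. For plk4 the rule was not met when its highest transcript stood in for the sum.

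The other centriole genes of the set serve the distal lumen, the wall or accessory structures. The centrin cetn4, the most abundant of the 11, had 18.5 FPKM at NF10.5, 347 at NF16 and then 91.9 at NF24. The microtubule-binding centriole gene mdm1 had 17.7, 137 and 54.3 FPKM, and ccdc61, a basal body gene, had 11.02, 67.9 and 30.9 FPKM. The subdistal appendage gene cep128 had 13.9, 80.5 and 38.3 FPKM and the centriolar satellite gene pcm1 had 55.6, 134 and 64.7 FPKM. The second steps of cep128 and pcm1, -1.05 and -1.04, were the smallest of the 11, and neither met the rule after TPM rescaling or quantile normalization.

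With no scaling between stages, another 21 centriole genes were lower at NF24 with no call in the first step. The largest second steps among them were those of wrap73 (16.96 FPKM at NF10.5, 22.2 at NF16 and then 1.95 at NF24), poc5 (27.02, 44.5 and 6.87 FPKM), cep120 (56.1, 32.9 and 4.88 FPKM) and alms1 (21.3, 40.1 and 6.70 FPKM). Several just missed the first step, with cep83 at 0.97, pcnt at 0.97, ccp110 at 0.91 and cep76 at 0.89.

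**Figure D2:**
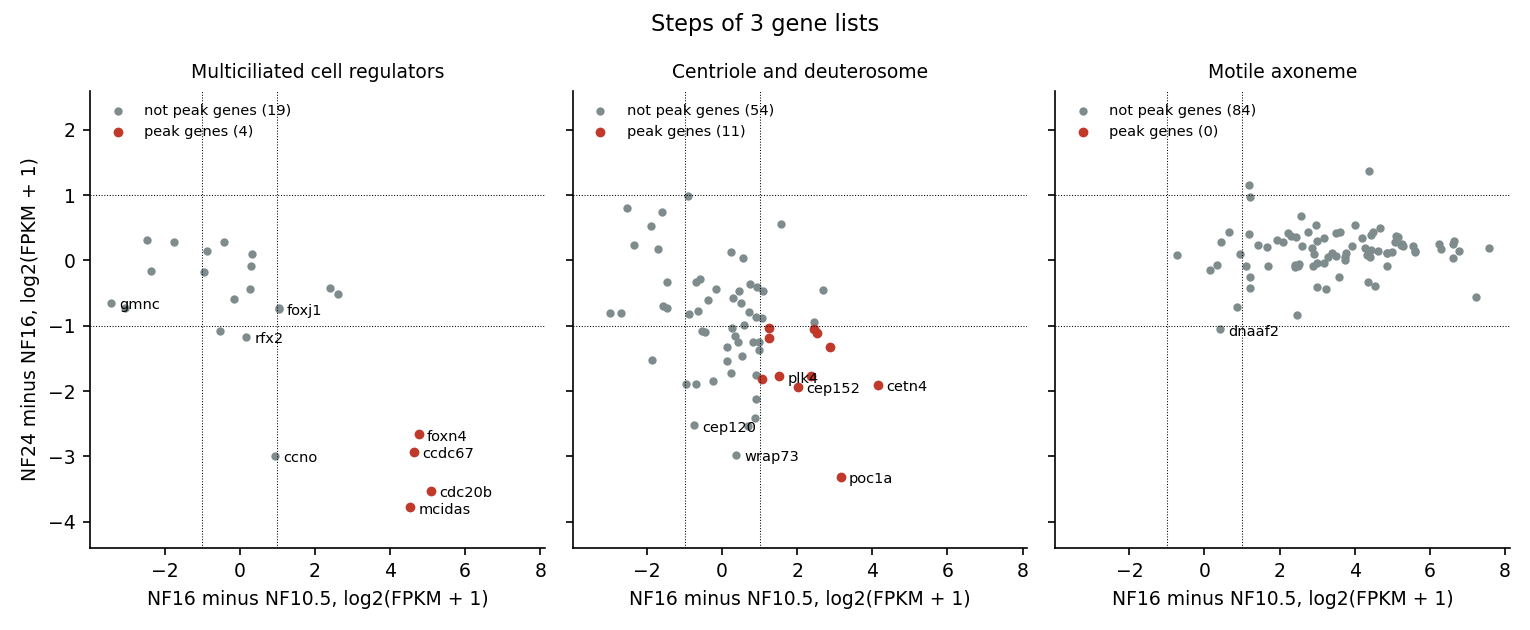
The same axes as in the plot of all genes, for the genes compared on 3 lists, with peak genes in red and the others in grey. Multiciliated cell regulators and centriole genes reach far below the line at -1 on the y axis, while 1 of the 84 motile axoneme genes lies below it.

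Lists of structural cilium genes held few genes called lower at NF24. Of 84 motile axoneme genes compared, 76 were higher at NF16 (90.5% against 20.9% of all genes), 1 was lower at NF24 (1.19% against 4.84%) and 0 peaked, with medians of 3.44 and 0.15 for the steps. Of 58 genes for intraflagellar transport, the BBS complex and the transition zone, 29 were higher at NF16 (50% against 20.9%), 1 was lower at NF24 (1.72% against 4.84%) and 1 peaked, a share of 1.72% that is near the 1.16% of all genes. That gene, bbs12, encodes a chaperonin-like factor for BBSome assembly and had 3.97 FPKM at NF10.5, 9.68 at NF16 and then 1.36 at NF24. It lies beside cetn4 in the annotation. Of 67 cell cycle genes compared, 51 were lower at NF16, beside 39% of all genes, and 11 were lower at NF24 (16.4% against 4.84%). None of the 67 peaked, which is near the share of 1.16% over all genes. In dividing cells several of the centriole genes above serve the cell cycle too.

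Further peak genes with cilium or microtubule roles lay outside the lists. The transition zone genes dzip1l (0.107 FPKM at NF10.5, 81.6 at NF16 and then 38.2 at NF24) and tmem237 (3.29, 23.1 and 9.79 FPKM) remained well above gastrula at NF24. The trichoplein gene tchp, whose product sits at centrioles and keratin filaments, was at 5.05, 21.1 and 5.44 FPKM, and the ciliary GTPase gene rabl2b at 30.9, 87.1 and 42.9 FPKM. Of the remaining ones, tbcel, related to a tubulin cofactor, had 2.55, 49.9 and 21.3 FPKM, and pmfbp1, known from the sperm tail in mouse, had 6.67, 55.5 and 15.8 FPKM. These 6 genes were chosen after their values were seen.

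Among the peak genes, 5 encode Hes repressors, bHLH proteins that mostly answer to Notch signals. They were hes8 (0.70 FPKM at NF10.5, 26.3 at NF16 and then 4.67 at NF24), hes3.3 (0.51, 15.9 and 4.02 FPKM), hes9.1 (2.44, 7.73 and 2.21 FPKM), hes5.1 (1.96, 6.71 and 1.87 FPKM) and esr10 (1.83, 6.29 and 1.61 FPKM). RefSeq now names them hes5.4, hes5.3, hes5.7, hes5.1 and hes5.5. The last 3 of the 5 had similar levels and were back near their gastrula values at tailbud, and none of these 3 met the rule with a pseudocount of 5, which left 2 Notch pathway genes in place of 5. Whether reads were shared between similar hes5 copies cannot be checked from FPKM.

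The following hes5 family genes did not meet the rule. The gene listed as LOC100495414, hes5.8 in RefSeq, had 9.09 FPKM at NF10.5, 15.4 at NF16 and then 5.94 at NF24. It was also highest at NF16 and lower at NF24, and missed the rule by its first step of 0.70. The gene hes5.2 had 0.103, 0.86 and 1.00 FPKM. By contrast hes3.1 (hes5.10) had 49.2, 11.5 and 3.14 FPKM and LOC733709 (hes5.9) had 30.6, 13.7 and 2.84 FPKM, so these were highest at gastrula. Of 40 Notch pathway genes compared, 10 were higher at NF16 and 10 were lower at NF24. These are shares of 25% and 25%, beside 20.9% and 4.84% of all genes. The 5 Hes genes were the ones that peaked (12.5%, beside 1.16% of all genes). Of the ligands, dll1 (49.4, 53.8 and 35.7 FPKM) was not called in either step and dlc (31.4, 21.1 and 7.39 FPKM) was lower at NF24. The receptor gene notch2 had 1.06, 26.3 and 36.8 FPKM and kept its neurula level.

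**Figure D3:**
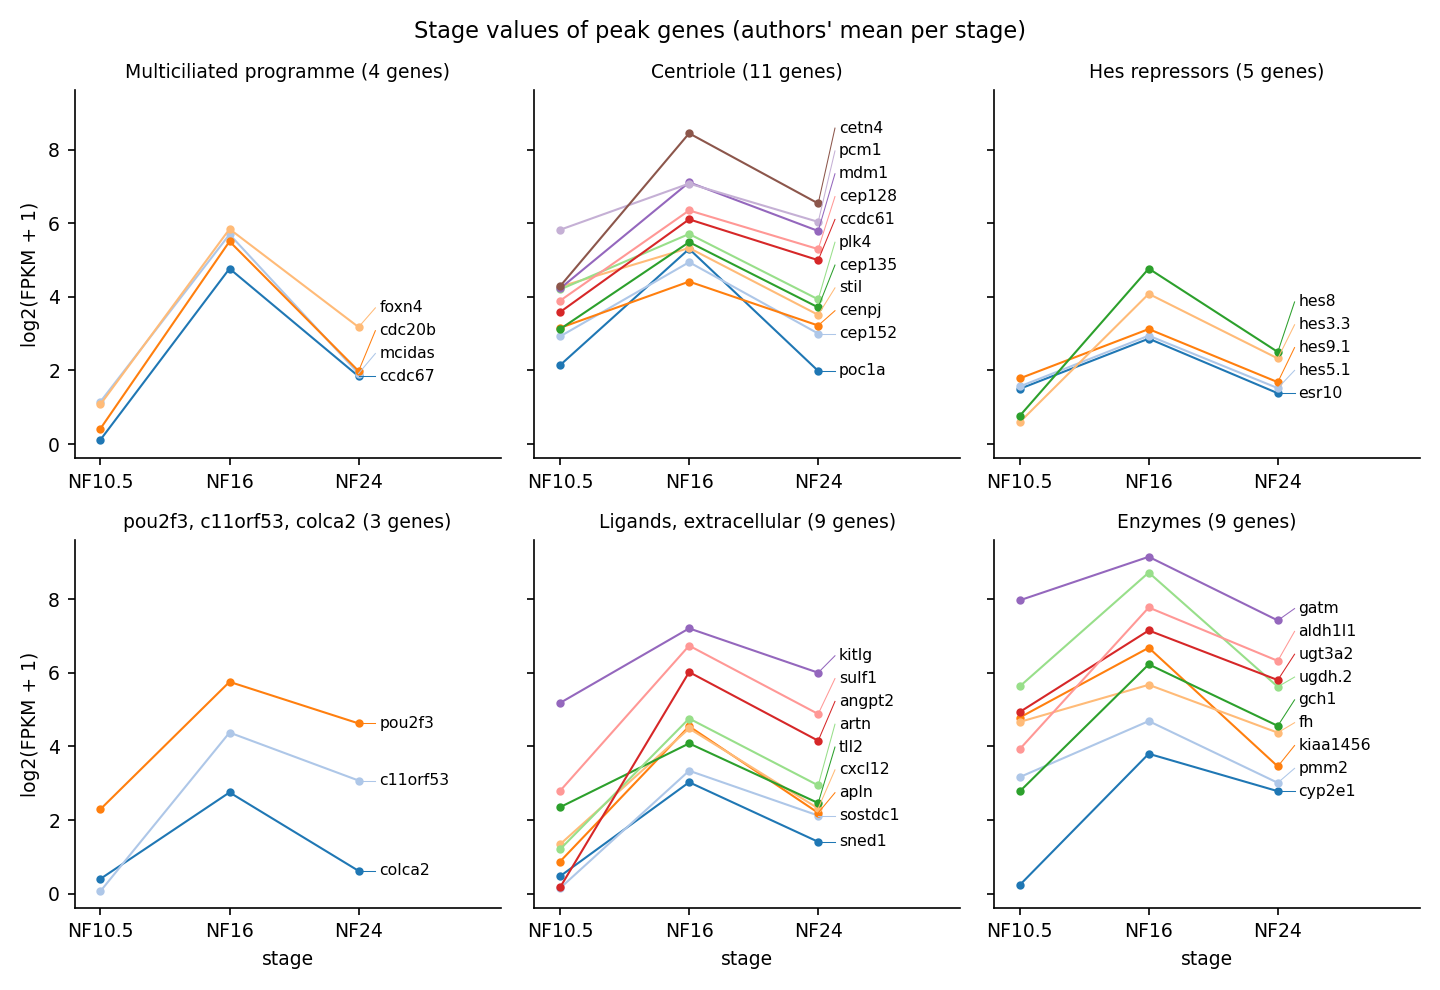
Lines join the authors' mean values of each gene at NF10.5, NF16 and NF24, in log2(FPKM + 1), for 6 groups of peak genes; names stand at the right in the order of the NF24 values. The 4 multiciliated genes lie at 1.23 FPKM or less at NF10.5, while enzymes such as gatm were already abundant at NF10.5, with 249.7 FPKM.

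The transcription factor gene pou2f3 and 2 small genes, c11orf53 and colca2, were all among the 136. In human tuft cells POU2F3 defines the cell type, and the products of the human genes C11orf53 and COLCA2 act as its coactivators. Here pou2f3 had 3.91 FPKM at NF10.5, 53 at NF16 and then 23.7 at NF24, c11orf53 had 0.05, 19.8 and 7.42 FPKM and colca2 had 0.323, 5.74 and 0.537 FPKM. The last 2 are direct neighbours in the RefSeq annotation. With a pseudocount of 5 neither of them met the rule, while pou2f3 did.

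Other regulators covered several tissues of the embryo. In the epidermis, the zinc finger factor genes gata2 (26.4 FPKM at NF10.5, 136.6 at NF16 and then 63.4 at NF24) and klf5 (55.2, 124 and 34.4 FPKM) peaked, as 2 of 46 ectoderm regulators compared (4.35%, beside 1.16% of all genes). The ionocyte regulator ubp1 had 1.09, 85.7 and 41.2 FPKM. It was the single peak gene of 19 ionocyte genes compared (5.26%, beside 1.16% of all genes). Its second step was -1.04, and ubp1 did not meet the rule under 4 of the 9 settings tried at this threshold. The leading ionocyte factor gene foxi1, with 47.3, 164 and 131 FPKM, was not called lower at NF24. The other epidermal lists held 0 peak genes, of 17 goblet and mucus genes, 16 small secretory cell genes, 35 keratin and junction genes and 5 cement gland genes compared, which for lists of this length is near the 1.16% of all genes.

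Some factors of the body axis and neural plate were also among the peak genes. They included pax8 as 1 of 38 neural genes compared (2.63%) and cdx2 as 1 of 15 endoderm genes (6.67%). The share of all genes was 1.16%, and each list held a single peak gene. The hindbrain factor meis3 had 28.3 FPKM at NF10.5, 81.8 at NF16 and then 25.4 at NF24, and gbx2.1, of the midbrain and hindbrain boundary, had 3.12, 47.5 and 21.8 FPKM. The caudal factor cdx2 had 27.9, 68.7 and 21.2 FPKM and pax8, of the kidney and ear, had 0.0533, 2.98 and 0.53 FPKM. Of those, meis3 and cdx2 were within 1 log2 of their gastrula value again at NF24, and gbx2.1 was not. For pax8 this cannot be judged, because it lay below 1 FPKM at both NF10.5 and NF24 and could not differ by 1 on this scale.

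Markers of mesoderm moved with stage beside these genes. The presomitic mesoderm factor msgn1 had 0.13 FPKM at NF10.5, 29.4 at NF16 and then 4.51 at NF24, and the protocadherin pcdh8l had 0.333, 33.3 and 13.5 FPKM. The heart troponin gene tnni3 was listed at 0 at NF10.5 and had 4.36 FPKM at NF16 and 1.67 at NF24. Of 61 mesoderm and muscle genes in the table, 18 stayed below 1 FPKM at all stages, and myl3 and tnnt1 were listed at 0 throughout. The summed level of the list was 212 FPKM at NF10.5, 796 at NF16 and then 1056 at NF24, and 24 of 43 compared were higher at NF16 (55.8% against 20.9% of all genes). At NF24, 9 of the 43 were higher than at NF16, beside 6.91% of all genes, and 4 were lower (9.3% against 4.84%), namely msgn1, pcdh8l, mespb and the brachyury gene t. The median second step of the list was 0.70. The part of these marker levels in the peaks above was not tested.

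The remaining factor genes were znf329, znf238.2, ciita, btg3 and h1f0. The zinc finger gene znf329 held rank 3 of the 136 by the smaller step, with 1.86 FPKM at NF10.5, 30.2 at NF16 and then 2.02 at NF24. At tailbud it kept 6.69% of its neurula level. The zinc finger repressor znf238.2 had 17.3, 121 and 52.3 FPKM. The replacement linker histone h1f0 had 2.32, 30.2 and 12.0 FPKM, the antiproliferative gene btg3 had 6.83, 21.6 and 6.85 FPKM, and ciita, the activator of class II antigen presentation genes, had 0.02, 2.77 and 0.34 FPKM.

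Secreted factors formed another group, with 9 genes for ligands or extracellular proteins, grouped after their values were seen. The peptide ligand apelin, apln, had 0.83 FPKM at NF10.5, 22.4 at NF16 and then 3.58 at NF24, and the chemokine cxcl12 had 1.54, 21.4 and 3.98 FPKM. The angiopoietin angpt2 had 0.13, 63.9 and 16.8 FPKM and artemin, artn, a ligand of the GDNF family, had 1.31, 26.1 and 6.69 FPKM. At tailbud the first of these kept the least of its neurula value and the others between 18.6% and 26.3%. The heparan sulfatase sulf1, which trims sulfate from cell surface chains that bind growth factors, had 5.93, 105.7 and 28.5 FPKM. The others were the BMP and Wnt antagonist sostdc1 (0.11, 9.13 and 3.36 FPKM), the tolloid-like protease tll2 (4.10, 15.9 and 4.51 FPKM) and the matrix gene sned1 (0.39, 7.16 and 1.66 FPKM).

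A receptor and its ligand were both in the set. The receptor tyrosine kinase kit, known from pigment cells, germ cells and blood, had 10.1 FPKM at NF10.5, 121 at NF16 and then 44.7 at NF24. Its ligand gene kitlg had 35.3, 146.8 and 63.1 FPKM. Both remained above their gastrula value at tailbud, kit by 2.05 on the log2 scale and kitlg by 0.82. On the neural plate border and crest list, kit and meis3 were the 2 peak genes of 47 compared (4.26%), of which 6 were lower at NF24 (12.8% against 4.84% of all genes), and the summed level of that list was 1166 FPKM at NF10.5, 1473 at NF16 and then 1231 at NF24.

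Of the other signalling genes, tril, a leucine-rich repeat membrane protein, had 4.32 FPKM at NF10.5, 57.6 at NF16 and then 10.6 at NF24. The receptor kinase tyro3 had 29.6, 83.8 and 36.7 FPKM and the G protein subunit gng5 had 623, 1342 and 649.7 FPKM. The step of gng5 out of NF16 was -1.05 and fell short of the rule with TPM rescaling or quantile normalization. The adaptor sh2d3c, the phosphatase ptpn13 and the opsin opn5 had NF16 values of 13.2, 35.7 and 1.83 FPKM.

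No gene peaked on the lists for Wnt signalling (0 of 57 compared), TGF-beta and FGF signalling (0 of 58), immediate early and stress genes (0 of 45), meiosis (0 of 20) or myeloid and blood cells (0 of 5). For lists of this length these counts are near the 1.16% of all genes.

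On the adhesion and guidance list, 3 of 65 genes compared were among the peak genes (4.62%, beside 1.16% of all genes). Besides the chemokine cxcl12 these were cdh26 (5.13 FPKM at NF10.5, 18.4 at NF16 and then 5.98 at NF24) and alcam (42.5, 154 and 75.05 FPKM). The second step of alcam was -1.03, and alcam did not meet the rule under 4 of the 9 settings tried at this threshold. The list as a whole was lower at NF24 in 3 of 65 cases, also 4.62%, close to the 4.84% of all genes. Outside the list, the protocadherin pcdh8.2 had 6.15, 26.3 and 11.6 FPKM.

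Enzymes, also grouped after their values were seen, included some of the most abundant peak genes. The UDP-glucose dehydrogenase gene ugdh.2, whose product makes the UDP-glucuronate used for glycosaminoglycans, had 48.5 FPKM at NF10.5, 422 at NF16 and then 48.2 at NF24. It held rank 5 by the smaller step and ended at a log2 difference of -0.01 against its gastrula value. The creatine synthesis gene gatm had 249.7, 568 and 171 FPKM, and the folate enzyme aldh1l1 had 14.2, 218 and 79.1 FPKM. The gene gch1, for the first enzyme of tetrahydrobiopterin synthesis, had 5.86, 74.1 and 22.6 FPKM, and ugt3a2 had 29.6, 141 and 54.8 FPKM. The gene kiaa1456, related to tRNA methyltransferases and summed over kiaa1456l and trmt9b of RefSeq, had 26.6, 101.6 and 9.98 FPKM. It and bbs12 were the 2 genes that ended below their gastrula value by 1 or more, at -1.33 and -1.08.

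The mannose enzyme pmm2 (7.98 FPKM at NF10.5, 24.8 at NF16 and then 7.07 at NF24), cyp2e1 (0.177, 12.9 and 5.89 FPKM) and the fumarase fh (24.4, 50.1 and 19.7 FPKM) completed the enzymes. For fh the first step was the small one, at 1.01. Splicing was represented by ptbp1, a repressor of alternative exons, with 265 FPKM at NF10.5, 606 at NF16 and then 206 at NF24. Its 2 main transcripts held 60.3% and 35.3% of the gene at NF10.5 and 61.5% and 32.9% at NF16, so the isoform mix was much alike at both stages.

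Channel and transporter genes, grouped after their values were seen, numbered 9 and had a median of 7.82 FPKM at NF16. For this group, the enzymes and the ligands no share of all genes compared was counted. The leak potassium channel kcnk9 had 0.09 FPKM at NF10.5, 7.82 at NF16 and then 1.36 at NF24, and the sulfate transporter slc13a1 had 0.03, 6.15 and 1.2 FPKM. The ABC transporter abcb5 was the most abundant of the 9, with 7.59, 128 and 56.7 FPKM over 13 transcripts, and how reads were shared with similar copies is not known. In RefSeq the transcripts matched belong to abcb5 and its direct neighbour LOC116406449, so the value sums over both. NF16 values of the others were 113 FPKM for slc25a30, 20.6 for trpm4, 12.6 for xkr8, 6.69 for abcb9, 3.44 for grik5 and 1.64 for grin2d. The grik5 value sums over grik5 and grik5-like.1 of RefSeq.

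The highest value of all belonged to LOC101733219, a gene with no name in the files, with 5.08 FPKM at NF10.5, 3021 at NF16 and then 1219 at NF24. Its first step of 8.96 was also the largest of the 136. LOC100488209 had 525, 1318 and 469 FPKM, LOC100498497 had 47.7, 128 and 27.7 FPKM and LOC101733854 had 27.8, 126 and 39.1 FPKM. The gene LOC108645772, with 4.56, 22.9 and 3.16 FPKM, was among the 20 with the largest smaller step. In all, 39 of the 136 are listed under a locus identifier, with NF16 values between 1.01 and 3021 FPKM and a median of 6.61.

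The 12 genes left with a symbol had no role assigned here. The most abundant was ankrd9, with 1.93 FPKM at NF10.5, 137 at NF16 and then 66.6 at NF24, and the one with the largest smaller step was tmem196, with 0.01, 5.16 and 0.387 FPKM. The gene kiaa1324l, the last one inside the threshold, had 19.4, 93.7 and 46.3 FPKM. The others were ccdc187, lrrc36, kiaa1211l, ccdc171, ypel2, fam198a, ccdc150, prr18 and tmem72, with NF16 values between 2.77 and 59.3 FPKM.

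**Figure D4:**
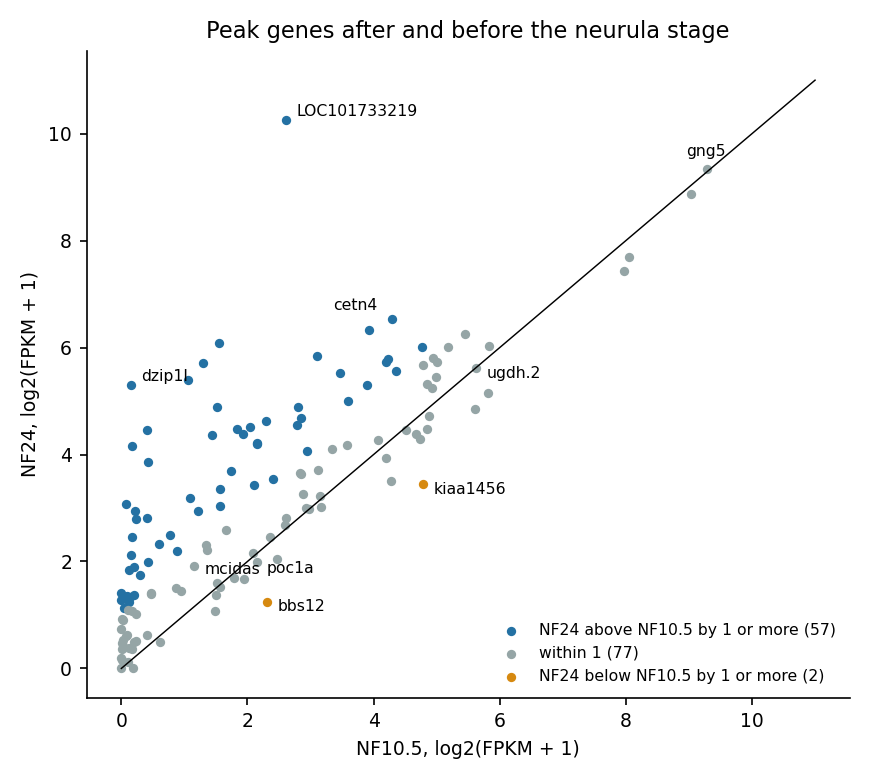
Each point is 1 of the 136 peak genes, with its NF10.5 value on the x axis and its NF24 value on the y axis, both in log2(FPKM + 1); the line marks equal values. Of the 136, 57 lie above the line by 1 or more, 77 lie within 1 of it and 2, bbs12 and kiaa1456, lie below it by 1 or more. The 77 include 20 genes below 1 FPKM at both stages, which could not lie farther from the line.

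The peaks differed in how far they came down. At NF24, 110 of the 136 genes had a higher FPKM than at NF10.5 and 25 had a lower one. By construction, the first step was the larger one in these 110 genes and the second in these 25. By the measure of a log2 difference of 1, 57 genes ended above gastrula, 2 below it and 77 near it, 47 of them within 0.5. The 77 include the 20 genes below 1 FPKM at both stages, which could not differ by 1 on this scale. Over all genes compared, 25.4% were higher at NF24 than at NF10.5 and 36.9% were lower. At NF24 the genes kept between 0% and 49.5% of their NF16 value, with a median of 29.8%. Among the multiciliated and centriole genes, poc1a kept 7.71%, mcidas 5.46%, cdc20b 6.65% and cep128 47.6%.

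Some peak genes lay beside each other in the genome. Of 124 peak genes placed in the RefSeq gene order (assembly UCB_Xtro_10.0), 13 had another peak gene as direct neighbour, while 154 of 11282 other genes compared (1.37%) had one. The groups were mcidas with cdc20b, bbs12 with cetn4, c11orf53 with colca2, cxcl12 with tmem72, hes3.3 with hes8 and esr10, and the pair LOC100491833 and LOC105948110. Of the 2 genes beside poc1a, neither peaked. These counts are descriptions with no test, and tandem copies such as the hes5 genes add to them.

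Transcripts of a peak gene often differed in whether they met the rule. Of the 136, 70 have 1 transcript in the table (51.5%, beside 49.2% of all genes compared). In 56 genes at least 2 transcripts reached 1 FPKM at NF16. Every such transcript met the rule in 12 of the 56, some did in 41, and none did in 3, which were LOC100486910, LOC548390 and rabl2b. Missing the rule need not mean another time course. The rabl2b transcripts had much the same second step, at -0.98, -0.96 and -0.95, each just short of the threshold. The leading transcript was the same at all stages in 37 of the 56.

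In mcidas, 3 transcripts each met the rule, and the leading one at NF16 held 25.8% of the gene at NF10.5, 76.2% at NF16 and then 47.8% at NF24. The main transcript of pcm1 at NF16 had 0.0967 FPKM at NF10.5, 67.7 at NF16 and then 30.4 at NF24, while another had 37.8, 53.2 and 27.3 FPKM and one more was at 15.5 FPKM at NF10.5 and listed at 0 later. Of the pcm1 transcripts at 1 FPKM or more at NF16, only the main one met the rule. The gene did not meet it when its highest transcript stood in for the sum, so that setting did not rest on this main transcript alone. In cetn4 the transcript that led at NF16 had 14.2, 249 and 43.3 FPKM and met the rule. The other, with 4.35, 98.1 and 48.6 FPKM, was the leading one at NF24. It missed the rule narrowly, with a second step of -0.9985. The division of reads among transcripts that overlap was made by the authors' software and leaves no trace in FPKM.

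The size of the set depends on the scaling between stages. With median-of-ratios scaling the median first step of all genes was 0.15 in place of -0.57, and 3575 genes were higher and 2418 lower at NF16, in place of 2466 higher and 4586 lower. This scaling gave 250 peak genes, with all 136 among them and 28 centriole genes in place of 11. Other settings lowered the number of centriole peak genes, to 7 with a pseudocount of 5 and to 5 with a threshold of 1.5. Quantile normalization gave 193 peak genes with 120 of the 136, and TPM rescaling 158 with 126. The 4 multiciliated genes and poc1a met the rule under each of the 11 settings tried, as did 34 of the 136 in all.

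**Figure D5:**
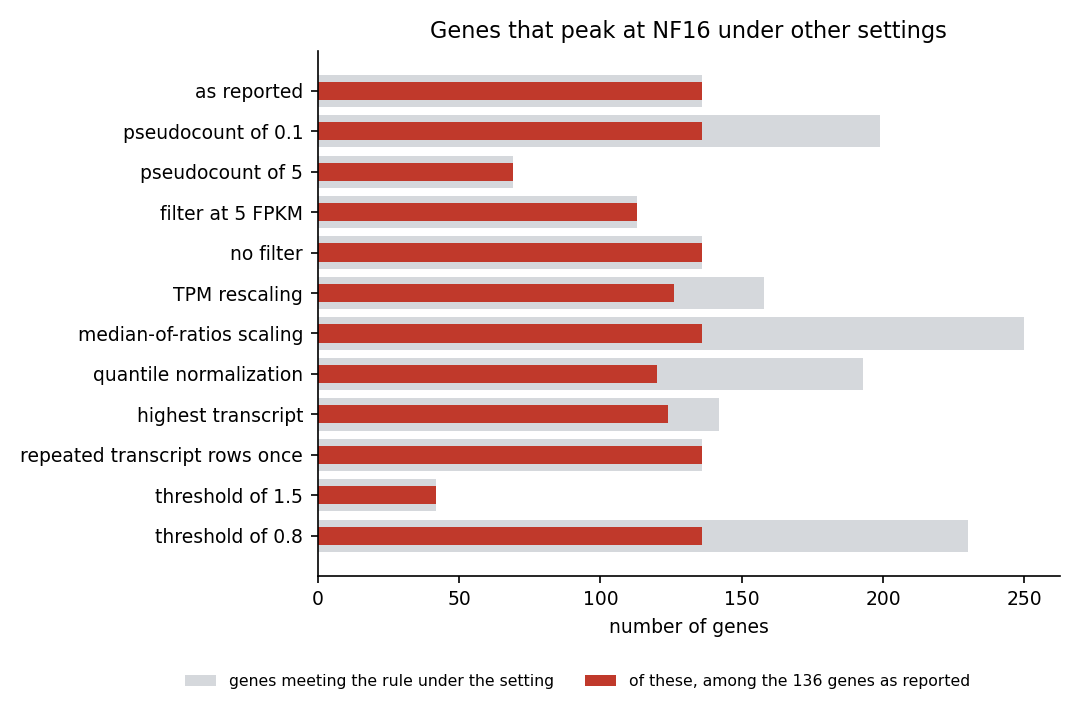
Grey bars give the number of genes that meet the rule under each setting and red bars the number of these that are among the 136 genes as reported. The count ranges between 42 with a threshold of 1.5 and 250 with median-of-ratios scaling.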

How the data were processed

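Ribosomal RNA-depleted total RNA of animal caps was sequenced from directional paired-end libraries, per the labels' protocols. The authors deposited FPKM for 35028 transcripts, and the file headers give each stage a single column. The submitters' processing notes name STAR 2.4.2a and RSEM 1.3.0, and the genome build is not given in the sources used here. All values above 0 lie within 0.0001 of a multiple of 0.01 divided by 3 (100%), so each is taken as a mean of 3 replicates. Depth per library is unknown, and no interval, SD or test can be given.

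FPKM was summed per gene, 19 repeated transcript rows included, with no scaling between stages, a pseudocount of 1, a minimum of 1 FPKM and a log2 threshold of 1 (Python 3.11.15, pandas 2.3.3, numpy 2.4.6). The calls were tested on simulated data, with peaks planted in genes of equal level at all stages and with an assumed noise. This checks the calling steps and not the peaks found in these data. RefSeq symbols matched 14652 of 17647 genes (83%), or 111 of the 136, through transcript accessions; neighbours were also matched by symbol. Named are the 20 genes with the largest smaller step, all on a list, the 20 highest at NF16 and the 4 nearest the threshold on each side. Genes outside this rule were named after their values were seen. The members and lists were chosen with earlier results of these data known. Some genes that meet the naming rule are not reported here. No sequence is shown.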

Additional observations from a re-analysis of the deposited data

How the results depend on the processing

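The number of peak genes, 136, was 69 with a pseudocount of 5, 250 with median-of-ratios scaling, 42 with a threshold of 1.5 and 230 with a threshold of 0.8. With no filter, a filter at 5 FPKM, a pseudocount of 0.1, TPM rescaling, quantile normalization, the highest transcript or repeated rows counted once it was between 113 and 199. The share of genes lower at NF24 than at NF16, 4.84%, was 8.33% with a pseudocount of 0.1, 2.29% with a pseudocount of 5, 1.55% with a threshold of 1.5 and 7.82% with a threshold of 0.8, and the share higher at NF16 stayed within 1.5 times its value under all 11 settings. A larger pseudocount lowers the steps of low genes by construction. For 61 named genes, 1243 of 1338 step values stayed past the threshold, 95 fell short of it and 0 changed sign. These 61 genes had already passed the rule in the same values, so the counts are no independent check of the peaks. Of the 136, 74 failed the rule under at least 1 of the 9 settings at the threshold of 1, and 62 met it under each. The number of centriole genes lower at NF24, 33 of 65, was between 18 and 40 over the settings. These ends came with the thresholds of 1.5 and 0.8, where 1.55% and 7.82% of all genes were lower. No paired analysis was possible because the table holds 1 value per stage, and for the same reason leaving out a replicate was not possible.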
